A study of Mus musculus with 22 samples.

Results

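Gene expression in allografts of EpiC-grown mouse mammary cells was compared with expression in EpiC cultures of such cells. EpiC is the culture method optimised for mammary cells that the series sets against conditional reprogramming (CRC). The comparison used 6 of the 22 poly(A) RNA-seq libraries of the series, chosen by their titles: the 3 allografts labelled EpiC (7B, 4C and 5A) and the EpiC culture of each of 3 genotypes. All cells came from nulliparous female C57Bl/6 mice that carried 1 mutant Trp53 allele and Cre recombinase under the MMTV promoter, a viral promoter active in mammary epithelium and in some other cells. The CYP19A1 culture and allograft 7B also carried a tetracycline-operator CYP19A1 (aromatase) transgene with the transactivator rtTA under the MMTV promoter. The Brca1 fl11/WT culture and allografts 4C and 5A carried 1 conditional Brca1 allele. The third culture was Brca1 fl11/fl11, with both Brca1 alleles conditional, and had no EpiC allograft, so results are also given without it. Allografts were generated in mammary glands of NU (NCr)-Foxn1nu hosts, nude mice that make few mature T cells but keep macrophages, neutrophils, B cells and natural killer cells. The labels do not say whether the libraries came from separate animals or cultures, or which culture gave rise to which allograft. A p-value here covers only the spread among these 6 samples. The main fit has no term for genotype, so that spread includes any difference between genotypes, and the rest may be technical.

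Cultured cells are fed by medium and have no vessels, whereas a graft is entered by vessels, blood and immune cells of its host. Macrophages are the most common immune cells of mammary tissue; they engulf dead cells, carry Fc receptors and make the complement component C1q. Secreted chemokines and acute phase proteins are known targets of the transcription factor NF-kappaB, which inflammatory signals switch on. Host and graft are both mouse, so a value for a gene does not separate them, and in such bulk samples fewer cells of a type and less RNA per cell cannot be told apart.

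Values are FPKM (fragments per length of transcript and per number of fragments mapped) as deposited. They are given in the order CYP19A1, Brca1 fl11/WT and Brca1 fl11/fl11 for the cultures, and 7B, 4C and 5A for the allografts. Differences are allografts minus cultures in log2(FPKM + 1). At low values this scale makes a change look smaller than it is. A gene was called at a limma Benjamini-Hochberg adjusted p under 0.05, and "rose" or "fell" is used of called genes. Sequencing depth is unknown, since FPKM do not give it. FPKM sums ran from 466441 to 825216, with the highest in 5A, and 11182 to 11784 genes reached 1 FPKM. Across genes, log2 values correlated at 0.887 to 0.962 between cultures, 0.832 to 0.904 between allografts and 0.747 to 0.799 between a culture and an allograft; genes are not independent replicates.

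A culture and an allograft stood apart from the rest. The Brca1 fl11/fl11 culture was near 0 for genes that define epithelium, among them the adhesion molecule Epcam (0.208 FPKM against 454 and 285 in the other cultures) and the keratin Krt8 (0.275 against 205 and 460), so its label as a mammary epithelial culture went against these markers. The mean log2(FPKM + 1) of the luminal list was 1.65 in it, against 4.01 and 3.85 in the other cultures. Not every member of the epithelial lists was low. It was the highest culture for Lcn2 (4948 FPKM against 1709 and 1203) and Sbsn (52.1 against 30.7 and 30.4). Allograft 5A differed from 7B and 4C by transcript length. Its median log2 difference from their mean was 1.19 for 555 genes with a longest transcript under 1000 nucleotides, 0.75 for 1966 genes of 1000 to 2000, 0.12 for 4784 genes of 2000 to 4000 and −0.51 for 4310 longer genes. Between 4C and 7B the same medians lay between −0.01 and 0.14. Values without either library are given beside many of the lists and genes described here, but not beside every list whose count changed.

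**Figure D1:**
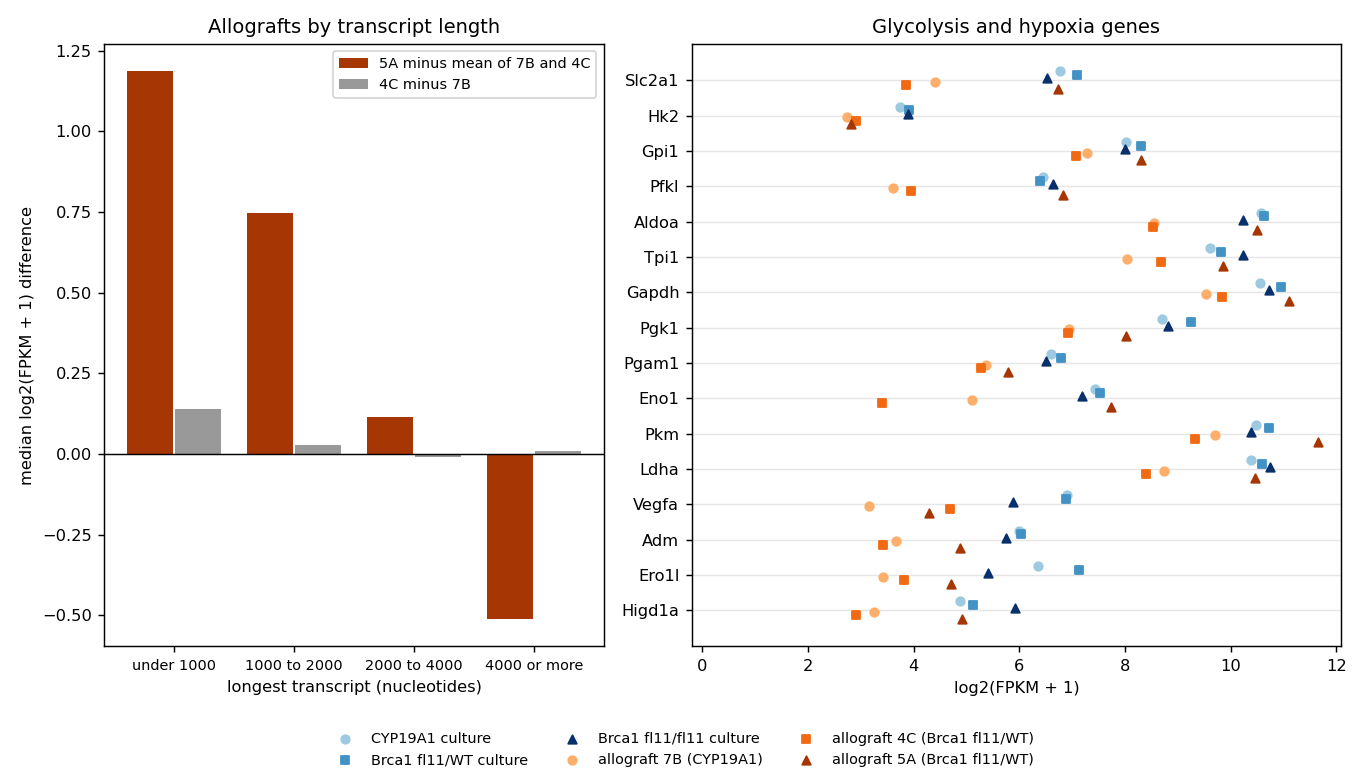
Left, bars give the median difference in log2(FPKM + 1) for genes in 4 classes of longest transcript length (GENCODE M21), for allograft 5A minus the mean of 7B and 4C and for 4C minus 7B; the 5A bars run from 1.19 in the shortest class to −0.51 in the longest. Right, each point is log2(FPKM + 1) of 1 glycolysis or hypoxia gene in 1 library; for Slc2a1, Pfkl and Aldoa the point of 5A lies beside those of the cultures, and those of 7B and 4C lie lower.

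Of the 5 study genes tested 0 were called with limma, and 0 had an unadjusted p under 0.05. Brca1 stood at 2.59, 3.6 and 2.39 FPKM in cultures and 3.38, 5.61 and 2.02 in allografts (log2 0.21, SE 0.38, limma adjusted p = 0.791). Its value per gene cannot show the loss of the conditional exon. Trp53, of which 1 allele was mutant in every library, stood at 29.4, 2.09 and 4.24 FPKM in cultures and 14.6, 15.5 and 16.6 in allografts (log2 1.07, SE 0.77, limma adjusted p = 0.472). The mouse gene Cyp19a1 was listed at 0, 0.014 and 0 FPKM in the cultures and at 0 in the allografts and was not tested; it does not check the transgene. Erbb2, a receptor kinase of breast epithelium, stood at 17.7, 13.3 and 5.73 FPKM in cultures and 7.92, 7.88 and 7.96 in allografts, and the oestrogen receptor Esr1 at 1.94, 1.27 and 1.07 FPKM in cultures and 2.18, 2.39 and 0.198 in allografts (log2 −0.03, SE 0.47, limma adjusted p = 0.979). The progesterone receptor Pgr stood at 0.208, 0.363 and 6.64 FPKM in cultures and 0.218, 0.407 and 0.0253 in allografts (log2 −0.95, SE 0.70, limma adjusted p = 0.485). Pgr passed the filter through the Brca1 fl11/fl11 culture and was not tested without it.

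Of 12136 genes whose mean reached 1 FPKM, 713 (5.88%) were called, 432 higher (3.56%) and 281 lower (2.32%) in the allografts, and 2609 had an unadjusted limma p under 0.05. Without the Brca1 fl11/fl11 culture 647 of 12082 genes (5.36%) were called, 327 higher (2.71%) and 320 lower (2.65%). Without 5A 1364 of 12097 (11.3%) were called, 598 higher (4.94%) and 766 lower (6.33%), so the balance of rises and falls turned with this library. Leaving out any other library gave 322 to 614 calls, the fewest without the CYP19A1 culture. Called lower were 101 of 12114 genes without the CYP19A1 culture and 133 of 12134 without the Brca1 fl11/WT culture. Without 7B they were 191 of 12107, and without 4C 135 of 12046. Called higher were 221, 225, 423 and 268 in the same order. List counts with 1 library left out stand beside these counts over all genes. All 3 allografts lay above all 3 cultures for 1939 genes (16%) and below them for 1552 (12.8%). The median log2 difference of all tested genes was 0.01. The list counts below, with all libraries, stand beside the shares of all genes called, 3.56% higher and 2.32% lower. The genes named are the 12 with the largest rise, the 12 with the largest fall, the study genes and up to 3 called members of each gene list; others, chosen after their values were seen, are listed with the methods.

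The largest rises were mostly of genes of macrophages and other myeloid cells. Lyz2, the lysozyme of macrophages and neutrophils, stood at 0.479, 0.561 and 0.631 FPKM in cultures and 2894, 1205 and 6589.9 in allografts (log2 10.84, SE 0.57, limma adjusted p = 0.000128). Ctss, a lysosomal protease that trims antigens, stood at 0.163, 0.105 and 0.0472 FPKM in cultures and 1499.6, 897 and 538 in allografts (log2 9.67, SE 0.40, limma adjusted p = 4.66e-05). Every allograft was at 538 FPKM or more, and every culture below 1 FPKM, for both genes. The 3 chains of C1q, which starts the classical complement cascade, rose together. C1qa stood at 0.254, 0.307 and 0.307 FPKM in cultures and 549, 562 and 2065 in allografts (log2 9.38, SE 0.52, limma adjusted p = 0.000133). For C1qb the values were 0.173, 0.244 and 0.314 FPKM in cultures and 638, 704 and 1955 in allografts (log2 9.59, SE 0.45, limma adjusted p = 7.87e-05). C1qc reached 346, 339.7 and 1087 FPKM in the allografts (log2 8.73, SE 0.47, limma adjusted p = 0.000133). Allograft 5A was highest for each chain, and 7B and 4C were close to each other.

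Receptors and adaptors of the same cells rose as well. Fcgr3, an activating Fc receptor, stood at 0.0327, 0.236 and 0.0948 FPKM in cultures and 421, 323 and 343 in allografts (log2 8.34, SE 0.26, limma adjusted p = 3.44e-05). Its inhibitory counterpart Fcgr2b reached 215, 174 and 282 FPKM in the allografts (log2 7.66, SE 0.29, limma adjusted p = 4.66e-05). The signalling chains that such receptors share, Fcer1g and Tyrobp, stood at 369, 604 and 1041 and at 259, 417 and 1034 FPKM in the allografts, against at most 0.236 and 0.158 FPKM in the cultures. Their log2 differences were 9.08 (SE 0.40, limma adjusted p = 5.73e-05) and 8.80 (SE 0.49, limma adjusted p = 0.000133). Csf1r, the receptor on which macrophages depend, stood at 3.46, 3.42 and 0.502 FPKM in cultures and 154, 162 and 159 in allografts (log2 5.69, SE 0.45, limma adjusted p = 0.000545), so the allografts differed little from each other. Its ligand Csf1 was not called, at 128, 134 and 174 FPKM in cultures and 46.3, 94.2 and 74.2 in allografts (log2 −1.06, SE 0.34, limma adjusted p = 0.133), and the groups did not overlap. The second ligand, Il34, stood at 29.3, 15 and 3.73 FPKM in cultures and 34.1, 17.8 and 52.9 in allografts, with overlapping groups (log2 1.32, SE 0.70, limma adjusted p = 0.329).

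Of 20 macrophage markers, 18 rose, and 18 or 19 did with any 1 library left out. The other two were the scavenger receptor Cd163 (log2 2.56, SE 0.60, limma adjusted p = 0.0525; adjusted p = 0.0274 without 7B) and Cd14, a co-receptor for bacterial lipopolysaccharide, which the cultures held at 67.7, 47.8 and 30.2 FPKM and the allografts at 79.1, 56.1 and 138 (log2 0.87, SE 0.44, limma adjusted p = 0.305). The summed FPKM of the list was 38.6 to 88.3 in the cultures and 6088 to 15800 in the allografts. In the cultures, 16 of the 20 genes were under 1 FPKM in every library and passed the filter through the allografts alone, so the count is a description. Laptm5, a lysosomal membrane protein of blood cells, stood at 0.0174, 0.0417 and 0.101 FPKM in cultures and 159, 226 and 136 in allografts (log2 7.34, SE 0.29, limma adjusted p = 4.66e-05), and Cd52, a surface glycoprotein of leukocytes, at 0.114, 0.283 and 0 FPKM in cultures and 76.7, 288 and 312 in allografts (log2 7.41, SE 0.54, limma adjusted p = 0.000388). The lectin Clec4n, also of myeloid cells, stood at 0.0794, 0.0638 and 0.0568 FPKM in cultures and 68.6, 172 and 301 in allografts (log2 7.17, SE 0.51, limma adjusted p = 0.000374).

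Markers of other blood cells moved in fewer genes. For neutrophils, Csf3r (the receptor of granulocyte colony-stimulating factor) was listed at 0 in every culture and stood at 8.73, 6.48 and 3.64 FPKM in the allografts (limma adjusted p = 0.00511), and Retnlg was listed at 0 in the cultures and stood at 14.9, 5.17 and 6.03 (limma adjusted p = 0.00558). Camp, an antimicrobial peptide of neutrophils that epithelium also makes, fell from 24.8, 29.3 and 194 to 0.0563, 0.0895 and 1.04 FPKM (log2 −5.33, SE 0.76, limma adjusted p = 0.00724). The summed FPKM of the 11 neutrophil markers overlapped between groups, at 49.7 to 195.8 in the cultures and 83.7 to 308.1 in the allografts. Irf8, a transcription factor of dendritic and other myeloid cells, stood at 0.102, 0.0466 and 0.0424 FPKM in cultures and 12.4, 17.8 and 20.4 in allografts (log2 4.04, SE 0.31, limma adjusted p = 0.000479). Of 12 dendritic cell markers 11 were under 1 FPKM in every culture. The filter was thus passed largely through the allografts, and the count is a description. Irf8 was the only called one of 4 tested, and without 7B 3 were called.

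Of 17 markers of T, B and natural killer cells, 7 were listed at 0 and 16 were under 1 FPKM in all cultures, so the filter was passed largely through the allografts and the count is a description: 6 passed and 4 rose. Without the CYP19A1 culture 2 rose, and without 5A 5 rose. The 4 that rose with all libraries were the cytotoxic granule genes Gzma and Prf1, Nkg7 of the same granules, and Cd4. Gzma stood at 32.9, 53.8 and 13.3 FPKM in the allografts and at 0 in the cultures (limma adjusted p = 0.00161), and Nkg7 at 6.09, 9.14 and 4.31 FPKM against 0 (limma adjusted p = 0.00373). Cd4, of helper T cells and some myeloid cells, stood at 0, 0 and 0.0193 FPKM in cultures and 2.68, 8.41 and 5.95 in allografts. The Cd4 call was lost without the CYP19A1 culture (adjusted p = 0.0524). The Prf1 call was lost without the CYP19A1 culture (adjusted p = 0.0671), the Brca1 fl11/WT culture (adjusted p = 0.0636) or 4C (adjusted p = 0.0583). The defining T-cell gene Cd3e reached 1.77, 0.322 and 0.113 FPKM in the allografts and Cd8a at most 0.483, and neither passed the filter. The summed list stood at 0.63 to 1.95 FPKM in the cultures and 31.7 to 92.7 in the allografts.

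Further granzyme genes were also measured, and in 7B and 5A Gzmc, Gzmd, Gzmf and Gzmg stood above Gzma. Gzmf was listed at 0 in the cultures and stood at 267, 88 and 142 FPKM in the allografts (limma adjusted p = 0.000138). Gzmc stood at 0, 0.122 and 0 FPKM in cultures and 65.7, 79.8 and 67.8 in allografts (log2 6.11, SE 0.27, limma adjusted p = 5.73e-05), Gzmd at 0.0503, 0.365 and 0.0728 FPKM in cultures and 118, 52.3 and 100.1 in allografts (log2 6.22, SE 0.37, limma adjusted p = 0.00016) and Gzmg at 88.3, 34.8 and 103 FPKM against 0 (limma adjusted p = 0.000374). Gzmb, the granzyme best known from cytotoxic lymphocytes, stood lower, at 6.17, 10.9 and 3.16 FPKM in the allografts (log2 2.81, SE 0.43, limma adjusted p = 0.00975). Gzme, which the cultures also held, stood at 2.2, 8.97 and 1.48 FPKM in cultures and 33.2, 12.6 and 45.4 in allografts and was not called (log2 2.70, SE 0.64, limma adjusted p = 0.0558), although the groups did not overlap. Without the Brca1 fl11/WT culture the Gzme adjusted p was 0.0296. These genes form a cluster of near copies, and how reads were shared among them is not given, so the value of each is uncertain.

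Red cell, vessel and muscle genes separated the groups in part. The haemoglobin chain Hbb-b1 stood at 0.579, 0.473 and 0.478 FPKM in cultures and 133, 183 and 1319 in allografts (log2 7.73, SE 0.79, limma adjusted p = 0.00174), highest in 5A. Alas2, the haem synthesis enzyme of red cell precursors, stood at 0.0439, 0.0175 and 0.0637 FPKM in cultures and 13.1, 25 and 16.5 in allografts (log2 4.16, SE 0.33, limma adjusted p = 0.000545). Hba-a1, which has a near copy, stood at 0.775, 0.559 and 0.413 FPKM in cultures and 17.4, 45.1 and 372 in allografts. The Hba-a1 call was lost without the CYP19A1 culture (adjusted p = 0.0633), the Brca1 fl11/WT culture (adjusted p = 0.0571) or 4C (adjusted p = 0.0667). All 7 red cell genes were under 1 FPKM in every culture. Of 18 endothelial genes 13 were under 1 FPKM in every culture, so tested members passed the filter largely through the allografts and the count is a description. Of 14 tested, 8 rose; leaving out 1 library gave 5 to 10, with 5 without 4C, the CYP19A1 culture or the Brca1 fl11/WT culture. Emcn, a surface protein of capillaries and veins, stood at 0.124, 0.0721 and 0 FPKM in cultures and 20.5, 55.1 and 21.9 in allografts (log2 4.83, SE 0.42, limma adjusted p = 0.000844). Pecam1, a junction protein of endothelium, stood at 0.113, 0.209 and 0.0732 FPKM in cultures and 21.4, 50.9 and 11.1 in allografts (log2 4.42, SE 0.52, limma adjusted p = 0.00331). For Cdh5, the cadherin of endothelium, the values were 0.0204, 0.0648 and 0.148 FPKM in cultures and 11.5, 38.4 and 9.23 in allografts (log2 3.99, SE 0.52, limma adjusted p = 0.00507). For each of the 3 genes 4C was the highest allograft.

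Of 9 tested genes of pericytes and smooth muscle 2 rose and 2 fell, with 1 to 3 in each direction when 1 library was left out. Of the 12 genes listed 6 were under 1 FPKM in every culture, among them Kcnj8, and 3 were not tested. Some tested members thus passed the filter through the allografts alone, and the count of rises is a description. Kcnj8, a potassium channel of pericytes, stood at 0.134, 0 and 0.0279 FPKM in cultures and 7.96, 9.82 and 8.64 in allografts (log2 3.22, SE 0.29, limma adjusted p = 0.000971). Cnn1 (calponin), a contractile gene of smooth muscle, fell from 10.6, 11 and 12.7 to 0.166, 0.223 and 0.582 FPKM (log2 −3.24, SE 0.29, limma adjusted p = 0.000988). Acta2 (smooth muscle actin), which activated fibroblasts and myoepithelium also use, fell from 136, 100.1 and 67 to 6.9, 22.6 and 27.9 FPKM (log2 −2.48, SE 0.53, limma adjusted p = 0.0374). The Acta2 call was lost without the CYP19A1 culture (adjusted p = 0.143), the Brca1 fl11/WT culture (adjusted p = 0.115) or 4C (adjusted p = 0.0921). Of 11 tested skeletal muscle genes 3 fell, with 0 called without the CYP19A1 culture and 1 without 7B or without the Brca1 fl11/fl11 culture. The creatine kinase Ckm stood at 8.67, 3.16 and 8.38 FPKM in cultures and 0.131, 0.166 and 0.208 in allografts. The Ckm call was lost without the CYP19A1 culture (adjusted p = 0.0579). Of 13 adipocyte genes 7 were under 1 FPKM in every culture, and 7 were tested. Of those tested 1 fell, Lpl, whereas 4 had every allograft above every culture. The median log2 difference of the tested adipocyte genes was 0.90. The lipase Lpl of adipocytes and macrophages stood at 22.6, 18.8 and 86.9 FPKM in cultures and 2.47, 5.79 and 3.37 in allografts. The Lpl call was lost without the CYP19A1 culture (adjusted p = 0.0704), 7B (adjusted p = 0.101), 4C (adjusted p = 0.077) or 5A (adjusted p = 0.0616). Of 5 mast cell and 4 Schwann cell markers tested 0 were called with limma, and 4 and 0 had an unadjusted p under 0.05. Of 8 listed mast cell markers 7 were under 1 FPKM in every culture. Without 7B 2 mast cell markers rose, and without the Brca1 fl11/fl11 culture 1 Schwann cell marker fell. Their genes with the highest mean were Gata2 (limma adjusted p = 0.414), Tpsb2 (limma adjusted p = 0.213), Ncam1 (limma adjusted p = 0.988) and Mbp (limma adjusted p = 0.646).

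**Figure D2:**
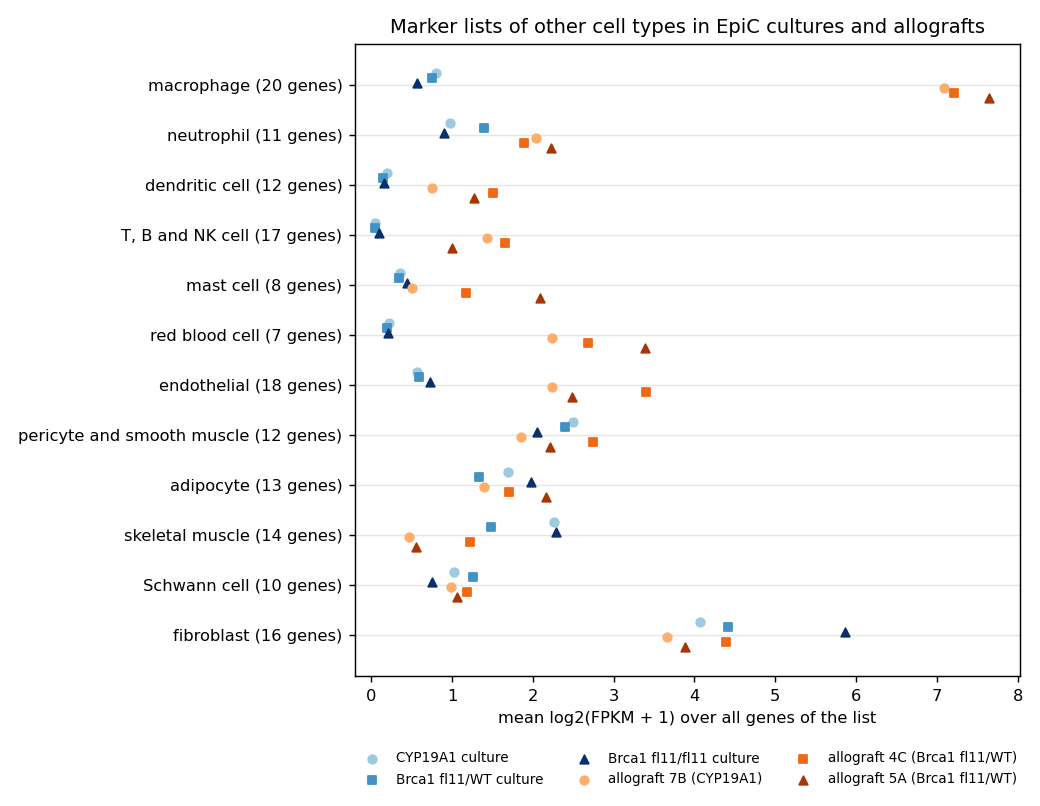
Each point is the mean of log2(FPKM + 1) over all genes of a marker list in 1 of the 6 libraries; cultures are blue and allografts orange. The macrophage list lies below 1 in the cultures and above 7 in the allografts; the neutrophil, dendritic, lymphoid, mast, red cell and endothelial lists are also higher in every allograft, the skeletal muscle list is lower, and the other 4 lists overlap.

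Most of the largest falls were of secreted factors. Cxcl5, a chemokine that draws neutrophils, fell from 1343, 1362 and 833 to 0.375, 20.7 and 12.8 FPKM (log2 −7.28, SE 0.95, limma adjusted p = 0.00507). Cxcl1, a chemokine with the same receptor, fell from 799, 972 and 458 to 8.89, 7.02 and 5.7 FPKM (log2 −6.45, SE 0.36, limma adjusted p = 0.000133). Il6, the cytokine that induces acute phase proteins, fell from 74.9, 186 and 45.6 to 0.742, 2.48 and 0.914 FPKM (log2 −5.27, SE 0.54, limma adjusted p = 0.00177). No allograft exceeded 20.7 FPKM for any of these genes, and no culture was below 45.6. Fgf7, a fibroblast-made growth factor for epithelium, fell from 128, 131 and 245 to 9.1, 1.44 and 0.512 FPKM (log2 −5.59, SE 0.68, limma adjusted p = 0.00389). Cyp1b1, an oestrogen-metabolising cytochrome, fell from 115, 114 and 186 to 0.945, 3.87 and 0.932 FPKM (log2 −5.68, SE 0.44, limma adjusted p = 0.00049). Thbs2 (thrombospondin 2) fell from 871, 195 and 521 to 5.23, 16 and 9.94 FPKM (log2 −5.41, SE 0.60, limma adjusted p = 0.00262). Efemp1, a matrix glycoprotein, fell from 62.4, 44.2 and 438 to 0.385, 1.6 and 1.27 FPKM (log2 −5.74, SE 0.81, limma adjusted p = 0.00682), with the Brca1 fl11/fl11 culture several times above the other cultures. The same culture was highest for Agt (angiotensinogen), which fell from 117, 16 and 479 to 3.15, 0.464 and 1.87 FPKM, and for Nrn1 (neuritin), which fell from 84.1, 96.4 and 314 to 16.1, 0.254 and 0.335 FPKM (log2 −5.49, SE 1.04, limma adjusted p = 0.0232). The Agt call was lost without the CYP19A1 culture (adjusted p = 0.114), 7B (adjusted p = 0.078), 4C (adjusted p = 0.136) or 5A (adjusted p = 0.0663). The Nrn1 call was lost without the CYP19A1 culture (adjusted p = 0.0598), the Brca1 fl11/WT culture (adjusted p = 0.0563), the Brca1 fl11/fl11 culture (adjusted p = 0.0574), 4C (adjusted p = 0.0985) or 5A (adjusted p = 0.0557).

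Of 29 tested cytokines and chemokines 6 fell and 2 rose; without the Brca1 fl11/fl11 culture 8 fell and 3 rose, and without the CYP19A1 or the Brca1 fl11/WT culture 3 fell. The risers were Ccl6, a chemokine of myeloid cells, at 0.336, 0.392 and 0.133 FPKM in cultures and 179, 90.3 and 130.3 in allografts (log2 6.66, SE 0.33, limma adjusted p = 9.66e-05), and Il1b (interleukin 1 beta) at 0.0669, 0.349 and 0 FPKM in cultures and 26.6, 137 and 29 in allografts (log2 5.43, SE 0.62, limma adjusted p = 0.00278). Ccl6 and Il1b passed the filter through the allografts alone, so the count of rises is a description. The monocyte chemokine Ccl2 stood at 958, 502 and 806 FPKM in cultures and 9.59, 204 and 77.2 in allografts and was not called (log2 −3.72, SE 0.97, limma adjusted p = 0.0751); without 4C its adjusted p was 0.0484. Csf3, the growth factor of neutrophils, fell from 31, 81.7 and 11 to 0.215, 0.807 and 5.95 FPKM. The Csf3 call was lost without the CYP19A1 culture (adjusted p = 0.147), the Brca1 fl11/WT culture (adjusted p = 0.131), 7B (adjusted p = 0.132) or 4C (adjusted p = 0.163). Ccl5 fell from 55.5, 64.4 and 68.1 to 13.9, 23.8 and 22.3 FPKM. The Ccl5 call was lost without the CYP19A1 culture (adjusted p = 0.0805), the Brca1 fl11/WT culture (adjusted p = 0.0979) or the Brca1 fl11/fl11 culture (adjusted p = 0.0664). The summed FPKM of the list was 4206 to 4445 in the cultures and 696.8 to 1418 in the allografts.

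Of 17 tested acute phase genes 6 fell and none rose, with a median log2 difference of −3.23 against 0.01 for all genes; leaving out 1 library gave 3 to 8 falls, 3 without 4C, 4 without 5A and 4 without the CYP19A1 culture. Lcn2 (lipocalin 2), which binds bacterial iron carriers, fell from 1709, 1203 and 4948 to 32.5, 9.64 and 13 FPKM (log2 −6.99, SE 0.63, limma adjusted p = 0.000979). Ptx3, a soluble pattern receptor, fell from 276, 66.6 and 309.8 to 1.49, 3.28 and 0.261 FPKM (log2 −6.24, SE 0.68, limma adjusted p = 0.00234). Nos2, the inducible nitric oxide synthase, fell from 61, 125 and 35.3 to 0.343, 0.804 and 3.54 FPKM (log2 −4.89, SE 0.60, limma adjusted p = 0.00385). Saa3, a serum amyloid made outside the liver and a near relative of Saa1, stood at 2396, 3217 and 37238 FPKM in cultures and 2111, 32.5 and 48.4 in allografts and was not called (log2 −5.44, SE 1.69, limma adjusted p = 0.12); allograft 7B was near the level of the CYP19A1 culture. Without 7B the Saa3 log2 difference was −7.34 (limma adjusted p = 0.0227). Hp (haptoglobin) fell from 505, 252 and 127 to 23.5, 14.2 and 50.7 FPKM. The Hp call was lost without the CYP19A1 culture (adjusted p = 0.0757), the Brca1 fl11/WT culture (adjusted p = 0.0715), 7B (adjusted p = 0.0775) or 4C (adjusted p = 0.0932).

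The list of 15 complement genes went both ways. Properdin (Cfp), C1q and the receptors C3ar1 and C5ar1 rose, 6 genes in all and 6 with any 1 library left out. In the list 6 genes were under 1 FPKM in every culture, among them the C1q chains, C3ar1 and C5ar1. These passed the filter through the allografts alone, so the count is a description. The C1q chains are also in the macrophage list. C3ar1, a receptor for a fragment of C3, stood at 0.113, 0.0299 and 0.15 FPKM in cultures and 28.1, 42.8 and 37.4 in allografts (log2 5.06, SE 0.29, limma adjusted p = 0.000138), and C5ar1 was listed at 0 in the cultures and stood at 30.8, 24.5 and 35.6 FPKM in the allografts (limma adjusted p = 0.000138). C3 itself, which epithelium and fibroblasts make, fell from 418, 230.2 and 1105 to 14.1, 27 and 9.98 FPKM (log2 −4.83, SE 0.61, limma adjusted p = 0.00462).

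**Figure D3:**
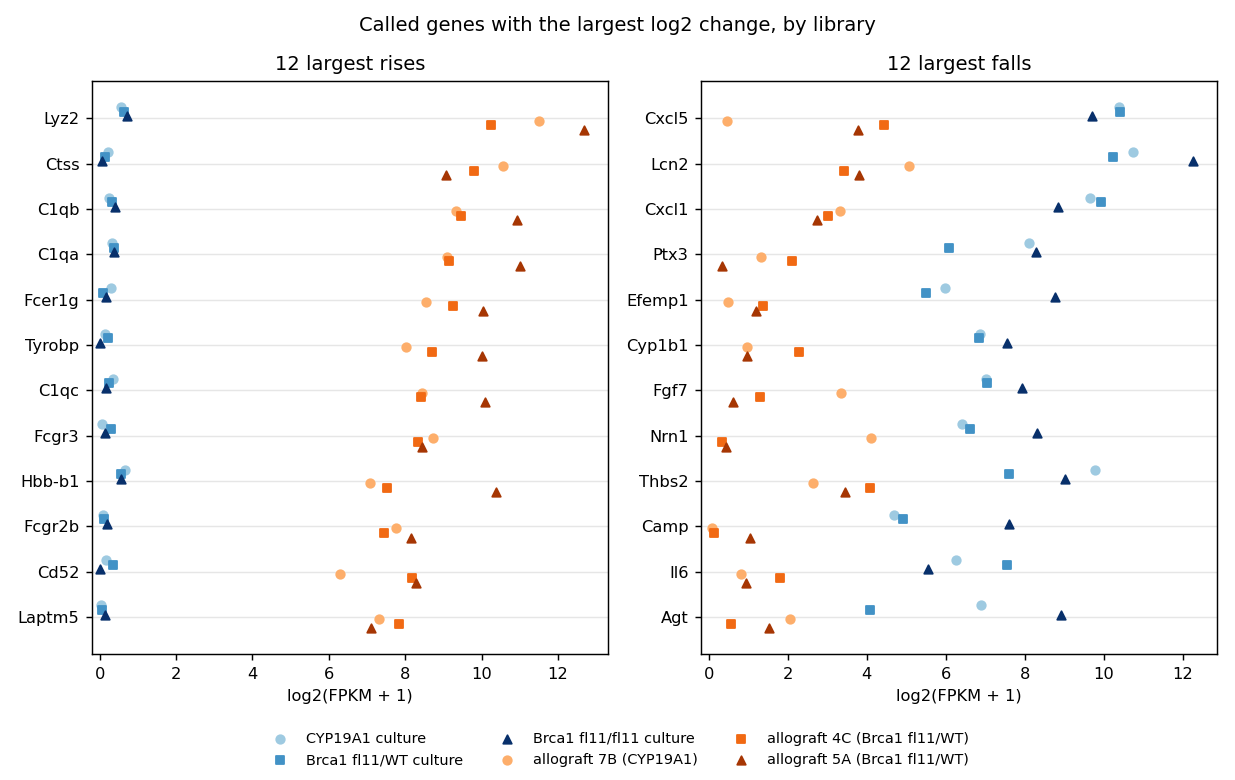
Each point is log2(FPKM + 1) of a gene in 1 of the 6 libraries, for the 12 genes with the largest rise (left) and the 12 with the largest fall (right). On the left every culture lies below 1 and every allograft above 6; on the right every allograft is below every culture, with the widest scatter among allografts for Cxcl5 and Nrn1.

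Promoters of 3 of the genes that fell most are shown because they differ in the NF-kappaB consensus, a motif chosen after the values were seen. They are RefSeq sequences of GRCm38.p6, 250 bases before to 50 after the start, 5′ to 3′ on the strand of the gene, with matches to the consensus (named kappaB, searched on both strands) in capitals. Cxcl1 lies at chr5:90890995-90891294 on the plus strand, Il6 at chr5:30012864-30013163 on the plus strand and Lcn2 at chr2:32387690-32387989 on the minus strand.
Cxcl1: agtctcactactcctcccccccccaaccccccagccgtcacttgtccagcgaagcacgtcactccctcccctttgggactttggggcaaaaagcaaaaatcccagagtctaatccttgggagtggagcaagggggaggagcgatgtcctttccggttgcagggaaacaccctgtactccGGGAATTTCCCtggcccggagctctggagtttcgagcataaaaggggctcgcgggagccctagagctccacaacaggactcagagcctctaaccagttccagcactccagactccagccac
Il6: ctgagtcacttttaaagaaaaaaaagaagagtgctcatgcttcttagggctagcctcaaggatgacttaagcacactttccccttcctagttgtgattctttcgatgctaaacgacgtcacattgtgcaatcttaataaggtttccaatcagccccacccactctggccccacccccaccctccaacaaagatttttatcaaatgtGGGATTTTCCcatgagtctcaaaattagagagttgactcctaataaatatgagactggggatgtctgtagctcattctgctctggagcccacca
Lcn2: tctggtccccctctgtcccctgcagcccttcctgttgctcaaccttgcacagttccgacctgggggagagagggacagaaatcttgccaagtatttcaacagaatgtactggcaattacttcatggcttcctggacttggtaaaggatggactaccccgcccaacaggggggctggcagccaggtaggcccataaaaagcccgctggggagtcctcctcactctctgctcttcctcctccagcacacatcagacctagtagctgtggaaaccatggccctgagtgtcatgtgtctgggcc
The match of Il6 starts 44 bases before the start site, and Cxcl1 has overlapping matches on both strands from 71 and 70 bases before it. Lcn2 has no match in this window, which says only that these letters are not there. Ptx3, not shown, has overlapping matches on both strands around its start site, and Saa3, not shown, has none. For Cxcl5, Nos2 and Cebpd the set used held no promoter. A match was found in 8 of 23 cytokine and chemokine promoters (34.8%), 3 of 13 acute phase promoters (23.1%), 18 of 198 promoters of genes called lower (9.09%) 591 of 9122 promoters of tested genes (6.48%) and 1388 of all 27025 promoters (5.14%). The cytokine and acute phase shares cover whole lists, in which 6 of 29 and 6 of 17 tested genes fell. A match is not evidence of binding.

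Epithelial genes depended on which cultures were compared. With all 6 libraries, 0 of 19 tested genes of epithelial adhesion and splicing were called with limma (5 had an unadjusted p under 0.05); without the Brca1 fl11/fl11 culture 17 of 19 fell, beside 2.65% of all genes. The list's mean log2(FPKM + 1) was 4.47 in the CYP19A1 culture, 3.94 in the Brca1 fl11/WT culture, 0.228 in the Brca1 fl11/fl11 culture and 0.926 to 1.12 in the allografts. Epcam stood at 454, 285 and 0.208 FPKM in cultures and 4.0, 3.01 and 1.49 in allografts (log2 −3.87, SE 2.03, limma adjusted p = 0.323); without the Brca1 fl11/fl11 culture the log2 difference was −6.61 (limma adjusted p = 0.000972). For Cdh1 (E-cadherin) the values were 165, 100.1 and 0.106 FPKM in cultures and 3.24, 13.9 and 5.98 in allografts, a log2 difference of −4.09 without that culture (limma adjusted p = 0.011). Rab25, a trafficking protein of epithelium, stood at 80.7, 62.2 and 0 FPKM in cultures and 0.87, 0.796 and 0.455 in allografts, a log2 difference of −5.40 without that culture (limma adjusted p = 0.000972). Esrp1, a splicing factor of epithelium, stood at 19.5, 12.9 and 0.0445 FPKM in cultures and 0.394, 0.395 and 0.0449 in allografts, a log2 difference of −3.74 without that culture (limma adjusted p = 0.0034). Each allograft thus lay between the Brca1 fl11/fl11 culture and the other cultures for Epcam, Cdh1, Rab25 and Esrp1.

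Keratins were not all alike. Krt7, a keratin of simple epithelium, stood at 649.7, 475 and 0.317 FPKM in cultures and 7.47, 9.81 and 2.02 in allografts, and without the Brca1 fl11/fl11 culture its log2 difference was −6.42 (limma adjusted p = 0.0024). Krt19 stood at 248, 299 and 11.6 FPKM in cultures and 9.49, 10.1 and 10.9 in allografts, with a log2 difference of −4.62 without that culture (limma adjusted p = 0.00114). Krt8 stood at 205, 460.2 and 0.275 FPKM in cultures and 57, 76.9 and 719 in allografts and Krt18, its partner in the filament, at 317, 533 and 0.684 FPKM in cultures and 121, 120.1 and 153 in allografts; neither was called with that culture (limma adjusted p = 0.72 and 0.815) or without it (0.671 and 0.0749). Allograft 5A was above every culture for Krt8. Krt14, a keratin of basal and myoepithelial cells, stood at 333, 124 and 1.73 FPKM in cultures and 9.41, 12.5 and 13.5 in allografts, with a log2 difference of −4.01 without that culture (limma adjusted p = 0.00642). Krt5, its basal partner, was low throughout, at 2.32, 2.22 and 1.0 FPKM in cultures and 2.06, 8.68 and 0.565 in allografts.

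Of 14 luminal genes 2 fell with all libraries, Ehf and Lcn2, and 6 without the Brca1 fl11/fl11 culture. Ehf, a transcription factor of luminal epithelium, fell from 15.7, 7.77 and 4.18 to 0.42, 0.407 and 0.0807 FPKM. The Ehf call was lost without the Brca1 fl11/WT culture (adjusted p = 0.055) or 4C (adjusted p = 0.0533). Sbsn (suprabasin), a gene of keratinising epithelium, fell from 30.7, 30.4 and 52.1 to 1.32, 1.35 and 0.964 FPKM (log2 −4.09, SE 0.32, limma adjusted p = 0.000499), and the Brca1 fl11/fl11 culture was the highest of the cultures. Of 9 tested milk protein genes 3 fell and 1 rose; 1 fell without 7B, 4C, the Brca1 fl11/WT culture or the Brca1 fl11/fl11 culture. Spp1 (osteopontin), which milk, bone and macrophages also contain, fell from 8933, 5239 and 7531 to 616, 408 and 461 FPKM (log2 −3.85, SE 0.39, limma adjusted p = 0.0016). The caseins were at trace level: Csn2 stood at 1.48, 4.24 and 7.14 FPKM in cultures and 0.0514, 0 and 0.159 in allografts, a call lost without the Brca1 fl11/WT culture (adjusted p = 0.146), the Brca1 fl11/fl11 culture (adjusted p = 0.0724), 7B (adjusted p = 0.0974), 4C (adjusted p = 0.126) or 5A (adjusted p = 0.0562), and Csn3, which rose, at 0.543, 0.912 and 1.06 FPKM in cultures and 10.7, 3.03 and 8.23 in allografts. The Csn3 call was lost without the CYP19A1 culture (adjusted p = 0.152), the Brca1 fl11/WT culture (adjusted p = 0.123), the Brca1 fl11/fl11 culture (adjusted p = 0.075), 7B (adjusted p = 0.0992) or 5A (adjusted p = 0.0658).

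**Figure D4:**
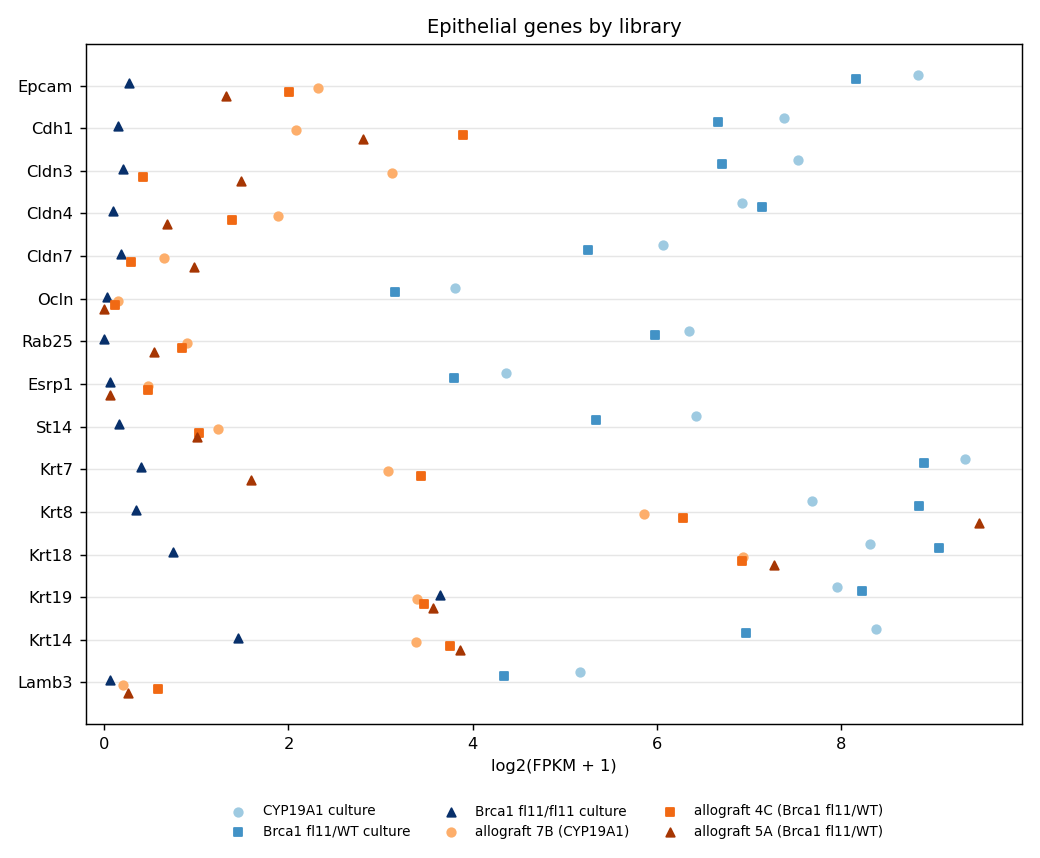
Each point is log2(FPKM + 1) of an epithelial gene in 1 of the 6 libraries. The CYP19A1 and Brca1 fl11/WT cultures are at the right for most genes, the Brca1 fl11/fl11 culture (dark triangle) is near 0 for all but Krt19 and Krt14, and Krt8 and Krt18 stay high in the allografts.

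Of 25 collagen and crosslinking genes 7 fell, beside 2.32% of all genes, and none rose, with a median log2 difference of −1.50. With any 1 library left out 5 to 8 fell. The collagen prolyl hydroxylase P4ha2 fell from 235, 150.3 and 230.3 to 2.84, 10.9 and 17.8 FPKM (log2 −4.41, SE 0.57, limma adjusted p = 0.00507). Lox (lysyl oxidase), which crosslinks collagen fibres, fell from 609.8, 752 and 477 to 91, 23.7 and 28.7 FPKM (log2 −3.89, SE 0.52, limma adjusted p = 0.00558). Col1a1, the main chain of collagen I, fell from 1436, 657 and 987 to 55.2, 180.1 and 74 FPKM (log2 −3.42, SE 0.51, limma adjusted p = 0.00931). Col5a2, a chain of collagen V, fell from 212, 139 and 91.9 to 2.33, 16 and 13.8 FPKM. The Col5a2 call was lost without the CYP19A1 culture (adjusted p = 0.0608). The collagen VI chain Col6a1 stood at 242, 192 and 262 FPKM in cultures and 399, 494 and 90.5 in allografts and was not called (log2 0.19, SE 0.62, limma adjusted p = 0.898); 7B and 4C were above every culture and 5A below. Without 5A the Col6a1 log2 difference was 0.95 (limma adjusted p = 0.0589). The summed FPKM of the list was 5291 to 7314 in the cultures and 1261 to 2805 in the allografts.

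Of 23 mesenchymal genes 1 fell, beside 2.32% of all genes. Prrx1, a transcription factor of fibroblasts, went from 123, 118 and 138 to 44.1, 56.9 and 21.4 FPKM. The Prrx1 call was lost without the CYP19A1 culture (adjusted p = 0.152), the Brca1 fl11/WT culture (adjusted p = 0.136), the Brca1 fl11/fl11 culture (adjusted p = 0.119), 7B (adjusted p = 0.0911) or 4C (adjusted p = 0.0546). The intermediate filament Vim stood at 1699, 1696 and 1307 FPKM in cultures and 1093, 2517 and 6489 in allografts (log2 0.75, SE 0.64, limma adjusted p = 0.547) and the repressor of E-cadherin Zeb1 at 7.07, 12.6 and 7.73 FPKM in cultures and 32.5, 30.8 and 10.7 in allografts (log2 1.23, SE 0.47, limma adjusted p = 0.187), so both were present in every library. Without 5A the Zeb1 log2 difference was 1.73 (limma adjusted p = 0.0238). Of 16 fibroblast markers 2 fell, beside 2.32% of all genes. Without 5A 3 fell, and without the Brca1 fl11/fl11 culture 2 fell and 1 rose. Ly6c1, which has the near copy Ly6c2, fell from 445, 166 and 705 to 27.5, 13.3 and 36.6 FPKM (log2 −3.91, SE 0.59, limma adjusted p = 0.0097), and Fbln2 from 228, 264 and 315 to 54.7, 95.7 and 46.4 FPKM. The Fbln2 call was lost without the CYP19A1 culture (adjusted p = 0.0569), the Brca1 fl11/WT culture (adjusted p = 0.0654) or 7B (adjusted p = 0.0511). The fibroblast receptor Pdgfra stood at 70.2, 75.9 and 190.2 FPKM in cultures and 102, 67.4 and 5.78 in allografts (log2 −1.49, SE 0.98, limma adjusted p = 0.43), and the proteoglycan Dcn at 153, 819.6 and 2956 FPKM in cultures and 3196, 790.5 and 316 in allografts (log2 0.37, SE 1.18, limma adjusted p = 0.893). The Brca1 fl11/fl11 culture was the highest of the cultures for both, and 5A the lowest allograft. Without 5A the log2 difference was −0.28 for Pdgfra (limma adjusted p = 0.73) and 1.14 for Dcn (limma adjusted p = 0.584). The basement membrane chain Lama5 fell from 19, 8.86 and 4.88 to 0.192, 0.432 and 1.77 FPKM, a call lost without the CYP19A1 culture (adjusted p = 0.102), the Brca1 fl11/WT culture (adjusted p = 0.0922), 7B (adjusted p = 0.0919) or 4C (adjusted p = 0.115), and the plasminogen activator Plat from 98.7, 80.1 and 152 to 36.5, 20 and 26. The Plat call was lost without the CYP19A1 culture (adjusted p = 0.0805), the Brca1 fl11/fl11 culture (adjusted p = 0.0554) or 4C (adjusted p = 0.0804).

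Of 26 ligands, inhibitors and targets of TGF-beta and BMP signalling 4 fell, beside 2.32% of all genes, and none rose. Without any 1 of the cultures or 4C 2 fell, and without 5A 5 fell. Id3, a target of BMP signalling, fell from 127, 137 and 199 to 18.7, 10.6 and 9.01 FPKM (log2 −3.54, SE 0.36, limma adjusted p = 0.00161). Grem1, a secreted BMP inhibitor, fell from 42.4, 74.5 and 11.2 to 0.98, 0.0503 and 1.13 FPKM. The Grem1 call was lost without 4C (adjusted p = 0.0523). Secreted Wnt inhibitors went both ways: Sfrp1 fell from 42.1, 104 and 226 to 4.36, 3.09 and 9.25 FPKM, a call lost without 4C (adjusted p = 0.0552), and Dkk2 rose from 1.58, 2.82 and 3.2 to 102, 21.8 and 34.5 FPKM (log2 3.66, SE 0.56, limma adjusted p = 0.0097). Junb, an immediate early factor, fell from 175, 109 and 85.9 to 4.48, 2.45 and 9.83 FPKM (log2 −4.34, SE 0.48, limma adjusted p = 0.00247), whereas its partner Fos stood at 18.5, 10.7 and 2.66 FPKM in cultures and 16.4, 9.81 and 7.55 in allografts (log2 0.32, SE 0.62, limma adjusted p = 0.815). Of 24 ERK feedback genes and 10 ErbB receptors and ligands, 0 were called with limma, and 7 and 2 had an unadjusted p under 0.05. Without the Brca1 fl11/fl11 culture 1 ERK feedback gene and 2 ErbB genes fell, and without 5A 1 of each list. The ligand Areg (amphiregulin) stood at 55.1, 90.9 and 0.381 FPKM in cultures and 28.4, 4.12 and 168 in allografts (log2 0.61, SE 1.77, limma adjusted p = 0.879), and Hbegf, another ligand of the same receptor, at 23.6, 45.7 and 4.75 FPKM in cultures and 8.55, 27.6 and 82.8 in allografts (log2 0.60, SE 0.96, limma adjusted p = 0.77). Of 23 YAP and SRF targets 3 fell, with 6 without 5A and 1 without the CYP19A1 or the Brca1 fl11/WT culture. Amotl2, a YAP target, fell from 55.7, 55.6 and 54.8 to 9.0, 19.1 and 3.67 FPKM. The Amotl2 call was lost without the CYP19A1 culture (adjusted p = 0.105), the Brca1 fl11/WT culture (adjusted p = 0.0922), the Brca1 fl11/fl11 culture (adjusted p = 0.0694) or 7B (adjusted p = 0.0829).

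Genes that glucocorticoids induce did not move together: 2 of 15 rose and 3 fell. Tsc22d3 (GILZ), a glucocorticoid target, rose from 11.6, 13.4 and 20.2 to 116, 59.4 and 99.2 FPKM (log2 2.51, SE 0.36, limma adjusted p = 0.00734). Sult1a1, a sulphotransferase, rose from 0.0967, 0.0775 and 0.0467 to 36, 9.01 and 6.42 FPKM (log2 3.71, SE 0.59, limma adjusted p = 0.0118), and passed the filter through the allografts alone. Ddit4, an inhibitor of mTOR that stress also induces, fell from 167, 194 and 107 to 32.9, 21.5 and 14 FPKM (log2 −2.76, SE 0.39, limma adjusted p = 0.00724). Cebpd, a transcription factor of the acute phase response, fell from 78.2, 60 and 117 to 11.7, 1.74 and 11 FPKM. The Cebpd call was lost without the CYP19A1 culture (adjusted p = 0.0669). Lcn2, given above, was the third that fell.

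Genes of MHC class II rose, with a wide spread between allografts. H2-Aa, a class II chain, stood at 0.429, 0.415 and 0.373 FPKM in cultures and 43.5, 1450.3 and 108 in allografts (log2 7.09, SE 1.13, limma adjusted p = 0.0119). Cd74, the invariant chain that guides class II to lysosomes, stood at 5.43, 2.3 and 5.9 FPKM in cultures and 248, 4237 and 348 in allografts (log2 7.09, SE 1.00, limma adjusted p = 0.00689). Allograft 4C was over 10 times above 7B for both, although every allograft was above every culture. H2-Eb1 stood at 0.0258, 0.393 and 0 FPKM in cultures and 19.9, 780.4 and 37.3 in allografts. The H2-Eb1 call was lost without the CYP19A1 culture (adjusted p = 0.0876), the Brca1 fl11/WT culture (adjusted p = 0.0648) or the Brca1 fl11/fl11 culture (adjusted p = 0.061). Of 17 tested genes of antigen presentation 4 rose, and leaving out 1 library gave 2 to 6, with 2 without any 1 of the cultures. Of the 19 genes listed 5 were under 1 FPKM in every culture, among them H2-Aa and H2-Eb1, and 2 were not tested. Some tested members thus passed the filter through the allografts alone, and the count is a description. Class I was not called: B2m, its light chain, stood at 2016, 1558 and 1476 FPKM in cultures and 2128, 2044 and 4030.4 in allografts (log2 0.64, SE 0.41, limma adjusted p = 0.424). The dendritic cell integrin Itgax was also highest in 4C, at 0, 0.00802 and 0 FPKM in cultures and 1.43, 41.5 and 5.16 in allografts (log2 3.10, SE 0.93, limma adjusted p = 0.11); its adjusted p was 0.044 without 7B, and its part in the class II values was not tested. Of 29 interferon response genes 1 rose, Gbp2, beside 3.56% of all genes. Gbp2 stood at 10.8, 21.1 and 28.1 FPKM in cultures and 57.2, 106 and 91.7 in allografts. The Gbp2 call was lost without the CYP19A1 culture (adjusted p = 0.101), the Brca1 fl11/WT culture (adjusted p = 0.0868), 4C (adjusted p = 0.113) or 5A (adjusted p = 0.0522). Without 7B 4 interferon response genes rose.

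Of 25 mitosis genes and 28 replication genes 0 were called with limma, and 3 of each had an unadjusted p under 0.05. Without 5A 4 mitosis genes rose, and 1 replication gene rose and 1 fell. Of the genes given here, those called without 5A were Mki67 (log2 1.54, limma adjusted p = 0.0378) and Mcm6 (limma adjusted p = 0.0238). Mki67, a protein of cycling cells, stood at 11.7, 10 and 7.41 FPKM in cultures and 23.2, 38.2 and 11.2 in allografts (log2 1.10, SE 0.45, limma adjusted p = 0.215). Birc5 (survivin), a mitosis gene, stood at 66.3, 78.6 and 36.1 FPKM in cultures and 113, 162 and 249 in allografts (log2 1.52, SE 0.42, limma adjusted p = 0.0899), and Ube2c, another, at 97, 74 and 47.1 FPKM in cultures and 32.9, 48.2 and 129.6 in allografts (log2 −0.23, SE 0.54, limma adjusted p = 0.844). The replication clamp Pcna stood at 96.8, 109 and 85.4 FPKM in cultures and 34.5, 57.6 and 79.2 in allografts (log2 −0.82, SE 0.36, limma adjusted p = 0.238), and the helicase subunit Mcm6 at 40.7, 35.9 and 30.2 FPKM in cultures and 83.6, 94.2 and 50.1 in allografts (log2 1.03, SE 0.33, limma adjusted p = 0.125). For Mcm6 and Birc5 all allografts were above all cultures, and for Pcna all were below.

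Of 26 p53 targets and cell cycle inhibitors 3 fell and 1 rose, beside 2.32% and 3.56% of all genes. Without the CYP19A1 culture 0 fell, and without 4C 1 fell. Without the Brca1 fl11/fl11 culture 2 fell and 1 rose, and without 5A 6 fell and 2 rose. Gadd45a, a stress gene, fell from 69.5, 63.5 and 74.2 to 23.1, 18.3 and 18.6 FPKM (log2 −1.74, SE 0.26, limma adjusted p = 0.00849). The Gadd45a call was lost without the CYP19A1 culture (adjusted p = 0.0559). The death receptor Fas fell from 46.9, 23.2 and 49.7 to 9.16, 6.13 and 4.36 FPKM. The Fas call was lost without the CYP19A1 culture (adjusted p = 0.0704) or 4C (adjusted p = 0.0595). Eda2r, a receptor of the tumour necrosis factor family, rose from 0.196, 0.296 and 0.32 to 8.45, 2.69 and 4.53 FPKM, and passed the filter through the allografts alone. The Eda2r call was lost without the CYP19A1 culture (adjusted p = 0.0961) or the Brca1 fl11/WT culture (adjusted p = 0.0824). Cdkn1a (p21) stood at 14.8, 36.5 and 18.9 FPKM in cultures and 47.3, 25.1 and 68.5 in allografts (log2 0.96, SE 0.47, limma adjusted p = 0.289). Cdkn2a, which encodes p16 and p19ARF, stood at 360.4, 311 and 707 FPKM in cultures and 52.8, 19.6 and 258 in allografts (log2 −2.71, SE 0.86, limma adjusted p = 0.126); without 5A its log2 difference was −3.69 (limma adjusted p = 0.0159).

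Glycolysis genes depended on allograft 5A. Of 29 glycolysis and hypoxia genes 3 fell with all libraries, beside 2.32% of all genes, and 18 without 5A, beside 6.33% of all genes. Without the Brca1 fl11/fl11 culture 2 fell, and without 7B or 4C 1 fell. Without the CYP19A1 or the Brca1 fl11/WT culture 0 fell, where only 101 and 133 of all tested genes were called lower. The mean log2(FPKM + 1) of the list was 6.11 to 6.47 in the cultures, 4.77 in 7B, 4.78 in 4C and 6.09 in 5A. Slc2a1, the glucose transporter GLUT1, stood at 108, 135 and 91.3 FPKM in cultures and 20.2, 13.5 and 105 in allografts (log2 −1.80, SE 0.70, limma adjusted p = 0.194); without 5A its log2 difference was −2.66 (limma adjusted p = 0.00634). Pfkl, a phosphofructokinase, stood at 85.8, 83 and 98.8 FPKM in cultures and 11.1, 14.4 and 113 in allografts, a log2 difference of −2.72 without 5A (limma adjusted p = 0.00301). Aldoa, the aldolase, stood at 1531, 1583 and 1201 FPKM in cultures and 373, 366 and 1439 in allografts, a log2 difference of −1.95 without 5A (limma adjusted p = 0.00758). In all 3 genes 7B and 4C were far below the cultures and 5A was among or near them. Vegfa, the vessel growth factor that hypoxia induces, fell from 118, 118 and 57.7 to 7.91, 24.7 and 18.5 FPKM (log2 −2.51, SE 0.48, limma adjusted p = 0.0246). The Vegfa call was lost without the CYP19A1 culture (adjusted p = 0.104) or the Brca1 fl11/WT culture (adjusted p = 0.0917). Adm (adrenomedullin) fell from 62.9, 64.6 and 52.4 to 11.7, 9.73 and 28.4 FPKM, a call lost without the CYP19A1 culture (adjusted p = 0.139), the Brca1 fl11/WT culture (adjusted p = 0.131), the Brca1 fl11/fl11 culture (adjusted p = 0.0739), 7B (adjusted p = 0.107) or 4C (adjusted p = 0.12), and Ero1l from 81.2, 139 and 41.5 to 9.66, 13.1 and 25. The Ero1l call was lost without the CYP19A1 culture (adjusted p = 0.144), the Brca1 fl11/WT culture (adjusted p = 0.131), 7B (adjusted p = 0.118) or 4C (adjusted p = 0.144).

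Other metabolic lists held few calls with all libraries. Some held more without 5A, where the share of all genes called lower also went from 2.32% to 6.33%. Fatty acid synthesis held 3 falls with and without 5A, and heat shock held 0 calls in both. Of 26 oxidative phosphorylation genes 0 were called with limma, 0 had an unadjusted p under 0.05, and 4 fell without 5A; Cox4i1, a subunit of cytochrome oxidase, stood at 1134, 1083 and 1303 FPKM in cultures and 1289, 738 and 1707 in allografts (log2 0.01, SE 0.41, limma adjusted p = 0.995). Of 23 cholesterol synthesis genes 0 were called with limma, and 2 had an unadjusted p under 0.05. Without 5A 3 fell, and without the Brca1 fl11/fl11 culture 1 fell. The synthase Fdps stood at 111, 139 and 36.3 FPKM in cultures and 59.9, 77.7 and 205 in allografts (log2 0.25, SE 0.63, limma adjusted p = 0.858). Of 17 fatty acid synthesis genes 3 fell, with 2 without the Brca1 fl11/fl11 culture, 1 without 4C and 0 without the CYP19A1 or the Brca1 fl11/WT culture. The desaturase Fads2 fell from 52.5, 63.3 and 37.2 to 13.5, 16.6 and 13.1 FPKM. The Fads2 call was lost without the CYP19A1 culture (adjusted p = 0.0859) or the Brca1 fl11/WT culture (adjusted p = 0.0886). Of 25 amino acid and unfolded protein genes 1 fell, and 6 without 5A; of 20 tested NRF2 and glutathione genes 1 fell, and 4 without 5A. Without any of the cultures or 4C, 0 of either list fell, nor of the NRF2 list without 7B. Pdia4, a folding enzyme of the endoplasmic reticulum, fell from 216, 186 and 219 to 74.1, 80.5 and 62.6 FPKM. The Pdia4 call was lost without the CYP19A1 culture (adjusted p = 0.103), the Brca1 fl11/WT culture (adjusted p = 0.0803), the Brca1 fl11/fl11 culture (adjusted p = 0.0641) or 4C (adjusted p = 0.0506). Of 15 heat shock genes 0 were called with limma, and 1 had an unadjusted p under 0.05; Hspa8, a constitutive chaperone, stood at 978, 1004 and 877 FPKM in cultures and 1130, 1125 and 1745 in allografts (log2 0.46, SE 0.34, limma adjusted p = 0.492).

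**Figure D5:**
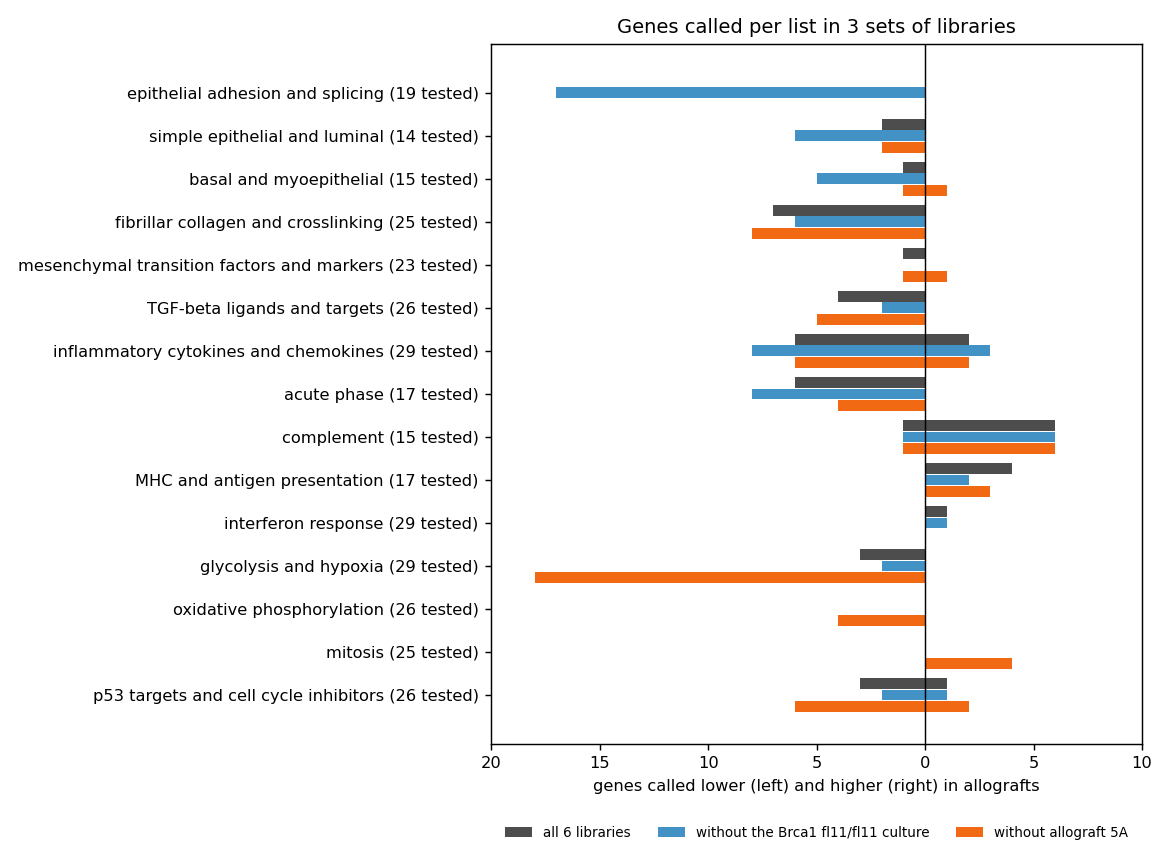
Bars give, for 15 gene lists, how many members were called lower (left of 0) and higher (right of 0) in the allografts, with all 6 libraries, without the Brca1 fl11/fl11 culture and without allograft 5A. Epithelial adhesion goes from 0 to 17 falls without that culture, and glycolysis from 3 to 18 falls without 5A.

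Within a genotype the comparison rests on 1 library a side for CYP19A1, and on 4C and 5A against 1 culture for Brca1 fl11/WT, with no test. The log2 difference of Lyz2 was 10.94 within CYP19A1 and 10.82 within Brca1 fl11/WT. For Cxcl1 it was −6.34 and −7.05, for Epcam −6.51 and −6.50, and for Col1a1 −4.68 and −2.50. The values of Epcam were nearly equal, and that of Col1a1 was larger within CYP19A1.

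Whether the change differed from that of CRC cells was tested with the interaction over 16 libraries, which adds 3 CRC cultures and 7 CRC allografts of these genotypes and of Brca1 fl11/fl11. Of 12325 genes 1737 (14.1%) were called, with the EpiC change above the CRC change for 867 (7.03%) and below it for 870 (7.06%). For the macrophage list 0 of 20 genes were called with limma in this test, and 1 had an unadjusted p under 0.05. Lyz2 had CRC means of 0.947 FPKM in cultures and 3298 in allografts, and the changes differed by 0.34 (SE 0.79, limma adjusted p = 0.825). The collagen list had 19 of 25 genes with a lower EpiC change, and the mesenchymal list 18 of 23. Col1a1 stood at 6.18 FPKM in CRC cultures and 532 in CRC allografts, and the changes differed by −9.48 (SE 0.66, limma adjusted p = 1.22e-07). Il6 stood at 0.896 and 1.33 FPKM, a difference of −5.41 (SE 0.68, limma adjusted p = 6.52e-05). In the opposite direction, 16 of 19 squamous genes, 11 of 17 basal genes and 10 of 23 epithelial adhesion genes had a higher EpiC change. Without the Brca1 fl11/fl11 EpiC culture, which was near 0 for many epithelial genes, these counts were 16, 10 and 10, and the members were not compared. Only 12 squamous, 15 basal and 19 adhesion genes passed the filter in the 6 EpiC libraries. Some members tested here thus passed it through the CRC libraries. Of 22 squamous genes listed, 10 were under 1 FPKM in every EpiC culture and had little room to fall. The counts of these lists are a description. For Epcam the changes differed by 2.66 with that culture (limma adjusted p = 0.439) and by −0.08 without it (limma adjusted p = 0.977). Krt5 stood at 4985 FPKM in CRC cultures and 1.19 in CRC allografts, and the changes differed by 11.80 (SE 0.85, limma adjusted p = 1.54e-07). Without the Brca1 fl11/fl11 EpiC culture 1188 genes were called, 576 above and 612 below.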

How the data were processed

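Poly(A) RNA from 6 libraries (paired-end, TruSeq) was analysed. The deposited values are FPKM, made by the authors with FastQC, Trim Galore, TopHat and Cufflinks on mm9. These tools are from the submitters' processing notes, which give no versions. The name under which the values were deposited includes Cuffnorm. The sources used here do not give the annotation or the settings by which libraries were scaled. The table held 23993 gene symbols, and genes with a mean under 1 FPKM in the libraries of a fit were left out.

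Allografts were compared with cultures by limma 3.58.1 (R 4.3.3; lmFit and eBayes with trend) on log2(FPKM + 1), with Benjamini-Hochberg adjustment over all tested genes. The interaction of medium and state was fitted over 16 libraries. The script was tested on simulated data. As alternatives, the pseudocount was set to 0.1, the filter was dropped or raised to 5 FPKM, libraries were rescaled by median ratios, and fits used genotype as a term, the 16-library fit, eBayes without trend, and each library left out. Transcript lengths came from GENCODE M21 and were found for 95.7% of tested genes. Promoters were matched by symbol for 9122 of 12136 tested genes.

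The members and the 45 gene lists were chosen with earlier results of these data known. The naming rule took the 12 called genes with the largest log2 rise and the 12 with the largest fall (5 FPKM or more on average in the higher group, no overlap), the 6 study genes, and up to 3 called members of each list, or the 2 with the highest mean where none was called. Chosen after their values were seen were Aldoa, B2m, C3, C3ar1, C5ar1, Ccl2, Ccl5, Cd14, Cd163, Cd3e, Cd8a, Cdh1, Cdkn1a, Cdkn2a, Cfp, Clec4n, Col1a1, Col6a1, Csf1, Csf1r, Csf3, Dcn, Ddit4, Esrp1, Fos, Gzmb, Gzmc, Gzmd, Gzme, Gzmf, Gzmg, Hp, Il1b, Il34, Itgax, Krt14, Krt18, Krt19, Krt5, Krt7, Krt8, Mki67, Pdgfra, Pfkl, Prf1, Rab25, Saa1, Saa3, Slc2a1, Tsc22d3, Vim and Zeb1.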

Additional observations from a re-analysis of the deposited data

Results flagged for a closer look

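Groups of 3 libraries are too small for the test of single outlying samples. Of 143 genes named above and tested over 16 libraries, 53 changed differently between allografts and cultures for EpiC than for CRC cells, by the interaction test over 16 libraries with limma, adjusted over all 12325 genes tested, beside 14.1% of all genes called in that test. Many of these genes were named for a large EpiC change in the same libraries, so the 2 shares are not comparable. Values are the EpiC log2 change minus the CRC log2 change.

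The EpiC change was below the CRC change for 38 genes. Among matrix and mesenchymal genes the difference was −9.48 for Col1a1 (adjusted p = 1.22e-07), −8.98 for Thbs2 (adjusted p = 2.61e-05), −6.83 for Col5a2 (adjusted p = 0.000279), −5.86 for Pdgfra (adjusted p = 0.00154) and −5.58 for Lox (adjusted p = 0.000166). It was −5.21 for Dcn (adjusted p = 0.00825), −4.99 for Prrx1 (adjusted p = 3.36e-06), −4.36 for Plat (adjusted p = 0.000139), −4.22 for Col6a1 (adjusted p = 0.0027) and −3.97 for P4ha2 (adjusted p = 0.00434). It was −3 for Zeb1 (adjusted p = 0.000297), −2.94 for Fbln2 (adjusted p = 0.00501), −2.43 for Vim (adjusted p = 0.0213), −2.17 for Ly6c1 (adjusted p = 0.0201) and −5.7 for Spp1 (adjusted p = 0.000487). Among inflammatory genes the difference was −7.76 for Saa3 (adjusted p = 0.0211), −6.73 for Ccl2 (adjusted p = 0.00136), −5.82 for Camp (adjusted p = 0.000184), −5.65 for Nos2 (adjusted p = 0.000103) and −5.47 for Ptx3 (adjusted p = 0.0039). It was −5.41 for Il6 (adjusted p = 6.52e-05), −4.41 for C3 (adjusted p = 0.00149), −3.63 for Csf1 (adjusted p = 0.000464), −2.69 for Saa1 (adjusted p = 0.0342) and −2.4 for Ccl5 (adjusted p = 0.0381). Among growth and signalling genes the difference was −7.57 for Fgf7 (adjusted p = 0.000224), −6.28 for Grem1 (adjusted p = 0.00179), −4.49 for Cdkn2a (adjusted p = 0.00404), −3.47 for Id3 (adjusted p = 0.00366) and −3.14 for Vegfa (adjusted p = 0.00957). It was −2.62 for Adm (adjusted p = 0.0199), −2.46 for Dkk2 (adjusted p = 0.0262) and −2.19 for Fas (adjusted p = 0.029). Among other genes the difference was −5.88 for Agt (adjusted p = 0.00752), −4.43 for Nrn1 (adjusted p = 0.0226), −3.85 for Cyp1b1 (adjusted p = 0.00276), −2.92 for Gata2 (adjusted p = 0.000271) and −2.01 for Ncam1 (adjusted p = 0.0297).

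The EpiC change was above the CRC change for 15 genes. Among epithelial genes the difference was 2.36 for Ehf (adjusted p = 0.0219), 2.99 for Sbsn (adjusted p = 0.00016), 3.38 for Esrp1 (adjusted p = 0.029), 6.91 for Krt14 (adjusted p = 0.027) and 11.8 for Krt5 (adjusted p = 1.54e-07). Among granzymes, near copies whose values are uncertain, it was 1.99 for Gzmb (adjusted p = 0.0175), 3.2 for Gzmc (adjusted p = 0.0127), 4.74 for Gzmd (adjusted p = 0.0263), 4.84 for Gzmf (adjusted p = 0.0484) and 4.87 for Gzmg (adjusted p = 0.00726). Among the rest it was 3.72 for Fos (adjusted p = 0.00229), 3.76 for Eda2r (adjusted p = 6.76e-05), 4.24 for Cdkn1a (adjusted p = 0.000106), 2.25 for Mbp (adjusted p = 0.0181) and 2.32 for Fdps (adjusted p = 0.0284).

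The mean levels give the base of a few of these. Col1a1 stood at a mean of 6.18 FPKM in CRC cultures and 531.8 in CRC allografts, against 1027 in EpiC cultures and 103.1 in EpiC allografts. Krt5, the basal keratin, stood at 4985 and 1.19 FPKM in CRC cultures and allografts, while both EpiC groups were low. Gzmf stood at 0.0191 and 18.2 FPKM in the CRC groups. Without the Brca1 fl11/fl11 EpiC culture the test called 1188 genes in place of 1737, and 40 of the 53 genes remained called. Not called without it were Saa3 (adjusted p = 0.0676), Nrn1 (adjusted p = 0.07), Saa1 (adjusted p = 0.09), Dkk2 (adjusted p = 0.0676), Ccl5 (adjusted p = 0.0838), Fas (adjusted p = 0.0796), Ly6c1 (adjusted p = 0.0634), Mbp (adjusted p = 0.0572), Fdps (adjusted p = 0.0831), Ehf (adjusted p = 0.0696), Gzmd (adjusted p = 0.0579), Gzmf (adjusted p = 0.0926) and Krt14 (adjusted p = 0.062). For Esrp1, still called, the difference was 2.04 without that culture (adjusted p = 0.00716).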

How the results depend on the processing

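With all libraries 713 genes were called, 432 higher and 281 lower. A filter at 5 FPKM gave 446 (250 higher), genotype as a term gave 268 higher, and the EpiC contrast from the 16-library fit gave 1907 (1064 higher, 843 lower). Leaving out 1 library gave 322 to 1364 calls, 221 to 598 higher and 101 to 766 lower. Leaving out the Brca1 fl11/fl11 culture and allograft 5A together, an alternative added after the values were seen, gave 1344 (826 lower). The comparison without the Brca1 fl11/fl11 culture gave 327 higher, and 188 without a filter. The test against the CRC change had the EpiC change above for 867 genes, and for 576 without the Brca1 fl11/fl11 culture. The other settings left these counts within 1.5 times of those with all libraries: a pseudocount of 0.1 and rescaling by median ratios in all 3 comparisons, and no trend, which was run for the 6-library comparison alone. The cause of each difference was not tested.

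Of the 83 genes that the naming rule took and that were called, 82 remained called with a pseudocount of 0.1, 83 after rescaling, 81 without trend, 61 without a filter, 62 with genotype as a term and 46 without any 1 library; none changed direction in these fits. With 3 libraries a side, 4 residual degrees of freedom and depth unknown, a gene that was not called may still differ. No paired analysis was possible because the cultures and allografts share no replicate numbers in the labels. Genotype, which a culture shares with 1 or 2 allografts, entered as a term instead. That fit left 2 residual degrees of freedom. The Brca1 fl11/fl11 culture, with no allograft of its genotype, did not enter its contrast. It gave 501 calls, and 372 of the 713 genes called in the main comparison (52.2%) remained called.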

Other observations

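Mcpt4, a chymase of mast cells, stood at 0.0471, 0.152 and 0.0682 FPKM in cultures and 0.115, 4.56 and 11 in allografts, so 5A and 4C were above 7B. Gata2 of the same marker list was instead highest in 7B. None of the mast cell genes was called with all libraries. Genes with short transcripts were high in 5A, among them S100a4, a calcium-binding protein of motile cells, at 1549.5, 1409 and 3270 FPKM in cultures and 2698, 1483 and 17110.3 in allografts, and Lgals1 (galectin 1) at 2984, 4034 and 4366 FPKM in cultures and 5872, 6972 and 27105 in allografts. For both genes 5A was more than 3 times above either of the other allografts. These genes were chosen after their values were seen, and the part of transcript length in their values was not tested.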
